A study of Mus musculus with 6 samples.

Results

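Sertoli cells, the somatic cells that line the seminiferous tubule and nurse the germ cells, were compared with embryonic fibroblasts across all measured genes. The comparison used 4 of the 6 libraries of a mouse series: 2 labelled MSCs and 2 labelled MEFs, chosen by those labels alone. MSCs were Sertoli cells prepared from testes of KM mice at postnatal day 60 and plated on culture dishes, with no treatment named for them. MEFs were mouse embryonic fibroblasts of KM mice, from embryos at 13.5 days post coitum by the age label, although the growth notes also allow an earlier day. The other 2 libraries, CiSCs, came from MEFs treated with small-molecule compounds to induce a Sertoli-like state, the aim of the series. They entered only the estimate of the spread. Of 20007 gene identifiers, 15272 had enough reads to be tested.

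Each library held between 19301771 and 20418587 expected counts, which are estimated reads per gene. Levels are CPM, the counts of a gene divided by the scaled size of its library in units of 1000000 counts, and 1 read was worth 0.0506 to 0.0543 CPM. Values are given for the first and the second library of a group in that order. A gene is called higher or lower, and is said to have risen or fallen, where the Benjamini-Hochberg adjusted p of edgeR's quasi-likelihood test was under 0.05 over all tested genes. Log2 fold changes are MSCs over MEFs ± standard error. A group with 0 reads allows up to 3 reads, 0.0769 CPM in MEFs and 0.0806 CPM in MSCs, so a fold against it is a lower bound that covers counting error only. Whether both libraries of a cell type came from 1 culture or from separate ones is not given by the labels. The p-values therefore measure the spread between these libraries, which may be technical. An exact permutation test of 2 libraries against 2 could not pass the threshold, so none is given. Age and tissue of origin, and possibly sex since MSCs came from testes, differ together with cell type and cannot be told apart from it. In bulk RNA, fewer cells of a type and less RNA per cell cannot be told apart either.

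Adult Sertoli cells have left the cell cycle. They build the blood-testis barrier from tight junctions, lay down the tubule's basement membrane together with the surrounding myoid cells, feed germ cells with lactate and metals, clear dying germ cells and make retinoic acid and hedgehog signals. Leydig cells, their neighbours outside the tubule, make androgens from cholesterol. Embryonic fibroblast cultures come from the body of the embryo without its head and viscera in most protocols, so limb, trunk and skin mesenchyme and resident macrophages can all be in the dish.

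The profiles differed widely. By the test, 6497 genes (42.5% of those tested) differed, 3436 of them (22.5%) higher and 3061 (20.0%) lower in MSCs. With library totals in place of scaled sizes, 3058 were higher and 3833 lower. The median log2 fold change over all tested genes was 0.01 (-0.10 with library totals in place of scaled sizes). A change of at least 16-fold was seen for 725 of the higher genes and for 271 of the lower genes. Genes called higher held 13.7% and 12% of the counts in the MEFs libraries and 36.7% and 37.2% in the MSCs libraries. The libraries of a group did not overlap with those of the other for 72.6% of the tested genes, so the absence of overlap alone says little. MEFs libraries were less alike than MSCs libraries, with 888 genes against 162 more than 2-fold apart. Of 348 genes named by rule that passed, 247 still passed whichever single library was left out, among them all 241 with an adjusted p below 0.00404. Where such a loss was found for a call named below, the text says so. A call without that remark, such as that of Col4a6, need not have held. A count given without either library of a group held with each of them left out in turn.

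The gene lists that follow group genes by function, and each count is over the members that could be tested. A listed gene near 0 in MEFs could be tested only where MSCs or CiSCs gave enough reads, so the filter itself favours higher calls in lists of Sertoli, Leydig or endothelial genes. The plot of list medians sets the main lists side by side.

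**Figure D1:**
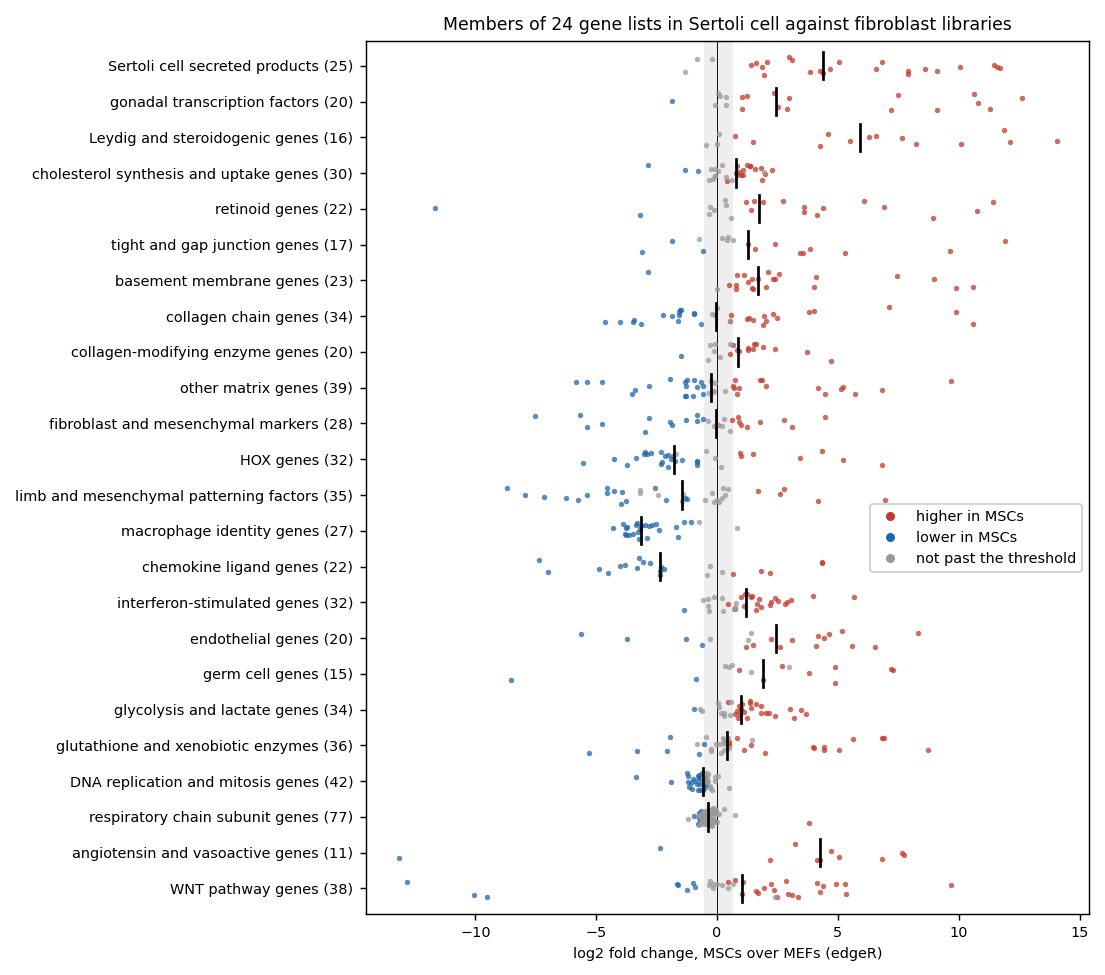
Log2 fold change of MSCs over MEFs (horizontal axis) for each tested member of 24 gene lists (points, coloured by call), with the median of each list as a vertical bar and a grey band for the middle 50% of all tested genes (-0.52 to 0.63). Leydig and steroidogenic genes have the highest median of these lists (5.90) and macrophage identity genes the lowest (-3.15), against 0.01 for all tested genes.

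The label Sertoli cell was checked first. Of 25 tested Sertoli cell secreted products, 22 rose and 0 fell (0 by DESeq2, and 1 at an unadjusted p under 0.05), with a median log2 fold change of 4.40. Their summed level was 3936 and 3572 CPM in MEFs and 18466 and 22214 CPM in MSCs. The secreted chaperone gene Clu stood at 5.66 and 5.87 CPM in MEFs and 4852 and 7529.9 CPM in MSCs (log2 fold change 10.07 ± 0.35, adjusted p = 1.17e-05). Dhh, the hedgehog ligand of Sertoli cells, stood at 0.101 and 0.104 CPM in MEFs and 37.5 and 46.9 CPM in MSCs (log2 fold change 8.60 ± 0.39, adjusted p = 2.22e-05). The inhibin alpha gene Inha was at 5.41 and 6.97 against 162 and 249.8 CPM (log2 fold change 5.06 ± 0.28, adjusted p = 4.32e-05). In all of these genes both MSCs libraries lay far above both MEFs libraries. The second MSCs library was the higher one for Clu and Inha. Kitl, the ligand of the germ cell receptor Kit, rose from 23.1 and 11.2 CPM to 384 and 339 CPM (log2 fold change 4.40). Among the few that did not rise, Trf, which encodes the iron carrier transferrin, was at 99.9 and 123 against 85.3 and 105 CPM (log2 fold change -0.23 ± 0.17, adjusted p = 0.31), and its groups overlapped.

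Transcription factors of the gonad moved the same way. Of 20 tested, 14 rose, 1 fell and 5 did not pass (median log2 fold change 2.43). Tcf21, a factor of testis somatic progenitors, had 1 read in MEFs and 224 and 181 CPM in MSCs, a ratio of 7910-fold (95% interval 1419 to 312485). Nr5a1 encodes steroidogenic factor 1, the nuclear receptor that drives steroidogenic and Sertoli cell genes, and had 2 reads in MEFs and 137 and 150.04 CPM in MSCs, a ratio of 2796-fold (95% interval 774 to 23093). For both of these genes the MEFs libraries were at the detection limit and the 2 MSCs libraries close to each other. The nuclear receptor gene Nr2f2, a marker of interstitial and mesenchymal cells, rose from 24.6 and 19.8 CPM to 179.7 and 167 CPM (log2 fold change 2.96 ± 0.17, adjusted p = 4.63e-05). The exception was Emx2, an early urogenital homeobox gene, which fell from 26.00 and 25.5 CPM to 7.603 and 6.52 CPM (log2 fold change -1.87 ± 0.19, adjusted p = 4.28e-04). Etv5, which Sertoli cells need to keep spermatogonial stem cells, was at 54.98 and 59.7 against 68.9 and 54.6 CPM, with overlapping groups (log2 fold change 0.11 ± 0.15, adjusted p = 0.602).

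A defining receptor was near its limit. The receptor gene Fshr had 4 reads in each MSCs library and none in MEFs, too few to test. Rhox5, an androgen-regulated gene, had 11 and 9 reads in the MSCs libraries and 1 in MEFs, also too few to test. Of 14 tested genes of hormone response, 8 rose and 1 fell. That one was Igf1r, the IGF1 receptor gene, at 209 and 158 against 107 and 97.3 CPM (adjusted p = 0.00894, 4.77e-05 to 0.101 over the alternatives, past 0.05 without MSCs 1 or MSCs 2). Apart from Trf, Emx2 and Etv5, the secreted products and transcription factors named above were higher in the libraries labelled Sertoli cells. They included Nr2f2, a marker of interstitial and mesenchymal cells, so their rise does not single out Sertoli cells. The FSH receptor gene was near its detection limit. The counts over these lists are no independent check of the label, given the filter.

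**Figure D2:**
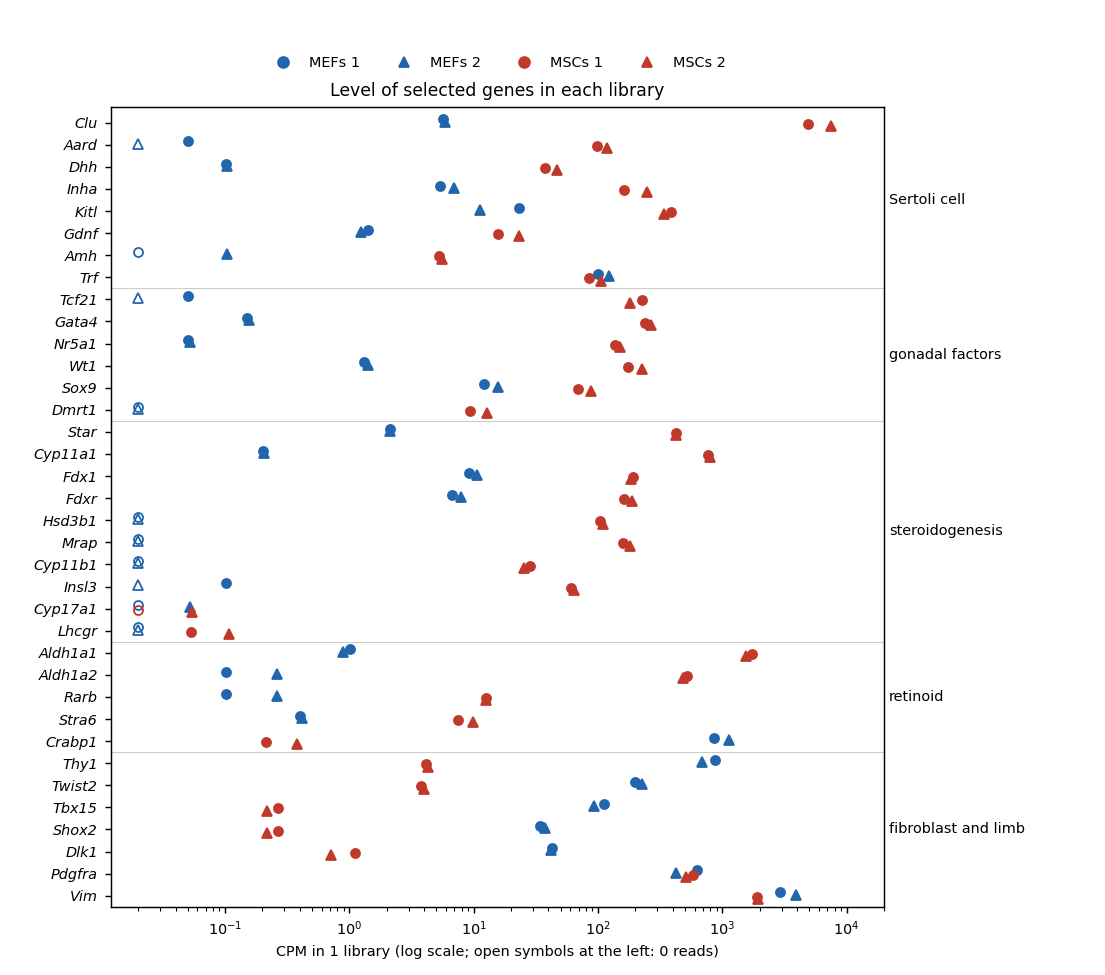
Level of selected genes in each library, as CPM on a log axis with open symbols at the left edge for 0 reads, grouped by function, with MEFs and MSCs libraries as separate symbols. Apart from Trf, Cyp17a1 and Crabp1, the Sertoli, gonadal, steroidogenic and retinoid genes shown lie further left for MEFs and further right for MSCs, fibroblast and limb genes such as Thy1 and Twist2 lie the other way round, and Pdgfra overlaps.

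Most Leydig and steroidogenic genes that could be tested were higher in MSCs. Of 16 tested, 13 rose, 0 fell by edgeR (0 also by DESeq2 and at an unadjusted p under 0.05) and 3 did not pass, with a median log2 fold change of 5.90. Summed, they stood at 320.2 and 445 CPM in MEFs and 2801 and 2876 CPM in MSCs. The early steps of steroid synthesis were covered. Scarb1, the receptor that takes up cholesterol from lipoproteins, rose from 37.6 and 32.1 CPM to 93.1 and 103 CPM (log2 fold change 1.49 ± 0.15, adjusted p = 5.07e-04). Star carries cholesterol into mitochondria and rose from 2.12 and 2.13 CPM to 423 and 426 CPM (log2 fold change 7.64). Fdxr, the reductase that passes electrons to the side-chain cleavage enzyme through ferredoxin, rose from 6.68 and 7.95 CPM to 163 and 188 CPM (log2 fold change 4.59 ± 0.17, adjusted p = 1.45e-05). In all of these both MSCs libraries lay above both MEFs libraries.

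Genes of adrenal-type and Leydig-type hormone production and response rose with them. Mrap encodes the accessory protein of the ACTH receptor, and had 0 reads in MEFs and 159.6 and 180.1 CPM in MSCs (at least 2208-fold higher). Cyp11b1, the 11-beta-hydroxylase of the adrenal cortex, had 0 reads in MEFs and 28.2 and 25.2 CPM in MSCs (at least 347-fold higher). It overlaps Gml2 in the annotation, and since strand was not stated their reads cannot be told apart. Insl3, the peptide hormone of Leydig cells, had 2 reads in MEFs and 60.3 and 64.6 CPM in MSCs, a ratio of 1217-fold (95% interval 337 to 10059). Insl3 lies inside the span of Jak3, whose mean level went the other way, from 37.4 to 20.7 CPM. Hsd11b1, which regenerates active glucocorticoid, rose from 0.202 and 0.208 CPM to 61.99 and 66.3 CPM (log2 fold change 8.25 ± 0.23, adjusted p = 1.66e-05). Prlr, the prolactin receptor gene, stood at 0.607 and 0.2599 against 46.9 and 38.2 CPM (log2 fold change 6.59).

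The androgen end of the pathway was not seen at this depth. Cyp17a1, the enzyme that turns progestins into androgens, had 1 read in MEFs and 1 in MSCs. Hsd17b3, the testis enzyme that completes testosterone, had 0 reads in all 4 libraries, which allows up to 0.0806 CPM in MSCs. Lhcgr, the luteinising hormone receptor gene of Leydig cells, had 0 reads in MEFs and 3 in MSCs. So Cyp17a1, Hsd17b3 and Lhcgr were at or near 0, while other members of the Leydig list, such as Insl3, Hsd11b1 and Prlr, rose. The genes that turn cholesterol into progestins were abundant. In MSCs, Cyp11a1 stood at 773 and 794 CPM and Hsd3b1 at 104 and 109 CPM. Steroidogenic genes rose in the same libraries as the Sertoli lists, and the part of other testis cells in either result was not tested.

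The promoters of steroidogenic genes are shown because Gata4 and Nr5a1, whose products bind GATA words and AAGGTCA, were among the genes that differed most. Gata4, a factor of Sertoli and Leydig cells, was at 0.152 and 0.156 against 239.8 and 265 CPM (log2 fold change 10.62 ± 0.22, adjusted p = 8.56e-06). The windows are the 250 bases before the annotated start in RefSeq, build GRCm38.p6, written 5′ to 3′ along the gene, with each match to the words AGATAA and AGATAG, and to the words TGATAA and TGATAG, on either strand in capitals. They were Cyp11a1 (its second listed start) at chr9:58014702-58014951 on the plus strand, and, on the minus strand, Hsd3b1 at chr3:98859795-98860044, Fdx1 at chr9:51963603-51963852, Fdxr at chr11:115276970-115277219 and Akr1cl at chr1:65032760-65033009.
Cyp11a1: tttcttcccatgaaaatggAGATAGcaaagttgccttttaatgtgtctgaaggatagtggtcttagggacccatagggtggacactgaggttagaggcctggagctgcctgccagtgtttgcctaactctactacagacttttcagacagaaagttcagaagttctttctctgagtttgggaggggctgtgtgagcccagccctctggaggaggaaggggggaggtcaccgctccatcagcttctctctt
Hsd3b1: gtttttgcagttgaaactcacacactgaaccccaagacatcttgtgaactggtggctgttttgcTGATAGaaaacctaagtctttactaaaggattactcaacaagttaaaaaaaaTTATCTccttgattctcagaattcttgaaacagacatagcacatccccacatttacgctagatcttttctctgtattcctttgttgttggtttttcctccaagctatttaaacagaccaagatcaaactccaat
Fdx1: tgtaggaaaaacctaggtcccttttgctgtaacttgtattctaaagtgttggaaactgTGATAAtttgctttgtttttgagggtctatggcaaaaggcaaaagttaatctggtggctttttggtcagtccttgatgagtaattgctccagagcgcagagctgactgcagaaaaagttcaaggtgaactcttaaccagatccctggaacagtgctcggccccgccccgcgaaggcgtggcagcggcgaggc
Fdxr: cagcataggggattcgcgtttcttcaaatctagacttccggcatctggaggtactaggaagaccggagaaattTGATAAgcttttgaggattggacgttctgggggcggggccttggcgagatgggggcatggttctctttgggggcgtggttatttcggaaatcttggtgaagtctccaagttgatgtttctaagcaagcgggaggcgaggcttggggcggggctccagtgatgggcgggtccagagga
Akr1cl: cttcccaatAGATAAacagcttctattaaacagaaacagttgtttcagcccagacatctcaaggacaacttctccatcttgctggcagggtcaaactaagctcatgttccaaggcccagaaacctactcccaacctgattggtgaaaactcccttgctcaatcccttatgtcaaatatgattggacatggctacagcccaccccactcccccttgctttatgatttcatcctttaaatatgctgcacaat
In Hsd3b1 the words began 186 and 134 bases before the start, the latter on the opposite strand (so TTATCT as written). The single words of Cyp11a1, Fdx1, Fdxr and Akr1cl began 231, 192, 177 and 241 bases before it. AAGGTCA was in none of these windows. They were chosen for holding a GATA word, and the windows of Cyp11a1's first listed start and of Insl3 held none. Of 13 genes on the list that rose, 11 had an entry, 6 of which (54.5%) held a GATA word and 1 of which (9.1%) held AAGGTCA, taking the first listed start of each gene. Over all 27025 genes of the table the shares were 27.1% and 4.1%. A match describes letters in the window and shows no binding.

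Genes of cholesterol supply rose by smaller steps. Of 30 tested, 16 rose, 3 fell and 11 did not pass (median log2 fold change 0.79). Abca1, which exports cholesterol from cells, rose from 322 and 267 CPM to 1239.7 and 1099.9 CPM (log2 fold change 1.99 ± 0.18, adjusted p = 2.61e-04). Soat1, which esterifies cholesterol for storage, was at 177 and 137 against 398 and 401 CPM (log2 fold change 1.35 ± 0.17, adjusted p = 0.00106). Of the members that fell, Abcg1, a second exporter that is strong in macrophages, dropped from 185 and 190.5 CPM to 25.5 and 25.7 CPM (log2 fold change -2.87 ± 0.13, adjusted p = 2.08e-05). The lysosomal lipase gene Lipa went from 279 and 318 CPM to 119.9 and 118 CPM and the lysosomal cholesterol transporter gene Npc1 from 167 and 166 CPM to 94.5 and 98.9 CPM, both lower in each MSCs library.

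Retinoic acid is made from vitamin A by aldehyde dehydrogenases and acts through nuclear receptors. In the testis, Sertoli cells are a source of it for the germ cells. Of 22 tested retinoid genes, 14 rose, 2 fell and 6 did not pass (median log2 fold change 1.73). Aldh1a1, which makes retinoic acid, stood at 1.01 and 0.884 CPM in MEFs and 1725 and 1545 CPM in MSCs (log2 fold change 10.74 ± 0.24, adjusted p = 8.56e-06). Aldh1a2, the second of these enzymes, was at 0.101 and 0.2599 against 525 and 487 CPM (log2 fold change 11.41 ± 0.42, adjusted p = 1.39e-05). Stra6, the retinol uptake receptor gene, rose from 0.405 and 0.416 CPM to 7.497 and 9.83 CPM (log2 fold change 4.38). Each was near or below 1 CPM in MEFs, and the MSCs libraries were close to each other. Among response genes, the receptor gene Rarb rose from 0.101 and 0.2599 CPM to 12.6 and 12.5 CPM (log2 fold change 6.08 ± 0.28, adjusted p = 2.47e-05), and the transglutaminase gene Tgm2 from 97.6 and 117 CPM to 714 and 686 CPM (log2 fold change 2.71 ± 0.16, adjusted p = 6.06e-05). The sharpest opposite change was in Crabp1, a retinoic acid-binding protein gene of embryonic mesenchyme, at 859 and 1129 CPM in MEFs and 0.213 and 0.3803 CPM in MSCs (log2 fold change -11.68 ± 0.32, adjusted p = 1.03e-05). Rxra, the common partner receptor gene, was at 85.3 and 64.1 against 75.5 and 62.7 CPM, with overlapping groups.

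Junction genes differed in a selective way. Of 17 tested tight and gap junction genes, 9 rose, 3 fell and 5 did not pass (median log2 fold change 1.26). Cldn11, the claudin of Sertoli cell tight junctions, rose from 0.101 and 0.05198 CPM (3 reads) to 263 and 373 CPM, a ratio of 4130-fold (95% interval 1413 to 20030). The adhesion genes Jam2 and F11r encode junctional adhesion molecules, and Jam2 rose from 9.91 and 5.61 CPM to 243 and 359.9 CPM (log2 fold change 5.28 ± 0.34, adjusted p = 8.18e-05). F11r was at 22.7 and 23.03 against 253 and 288 CPM (log2 fold change 3.56 ± 0.14, adjusted p = 1.60e-05). Cgnl1, which encodes the junction protein paracingulin, rose from 33.6 and 20.7 CPM to 279.8 and 299 CPM (log2 fold change 3.41). All of these had higher levels in both MSCs libraries. Tjp1, the scaffold ZO-1, was at 99.04 and 68.04 against 111 and 110.3 CPM and did not pass (log2 fold change 0.40 ± 0.19, adjusted p = 0.13). Cldn1, a claudin of skin epithelium, fell from 13.5 and 7.54 CPM to 1.01 and 1.41 CPM (log2 fold change -3.11 ± 0.38, adjusted p = 0.00108).

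Cadherin and polarity genes were mixed, with 11 higher, 5 lower and 10 not past the threshold of 26. Without the second MSCs library 7 rose. The lower count was 3 without the first MSCs library, 2 without the second and 8 without the second MEFs library. Cdh11, the cadherin of mesenchyme, fell from 828 and 619.9 CPM to 149 and 133 CPM (log2 fold change -2.36 ± 0.18, adjusted p = 1.58e-04). The catenin genes Ctnnb1 (575 and 465 against 477 and 452 CPM) and Ctnna1 (351 and 306 against 313 and 304 CPM) did not pass. Among 15 tested epithelial genes, 11 rose and 3 fell, and without the first or the second MSCs library 6 and 5 rose. The keratin gene Krt18, found in immature Sertoli cells, was at 1.11 and 1.403 against 8.24 and 8.26 CPM (log2 fold change 2.71 ± 0.29, adjusted p = 5.91e-04), and the splicing factor gene Esrp2 at 1.92 and 1.25 against 12.9 and 13.1 CPM (log2 fold change 3.03 ± 0.31, adjusted p = 4.60e-04). The surface protease gene St14 fell from 13.4 and 16.1 CPM to 1.81 and 1.41 CPM (log2 fold change -3.19 ± 0.28, adjusted p = 2.61e-04). Of the 8 tested transcription factors of epithelial-mesenchymal transition, 1 rose (Zeb2, a call lost without either CiSCs or either MSCs library), 2 fell and 5 did not pass. Twist2, a factor of dermal mesenchyme, fell from 198 and 225 CPM to 3.77 and 3.97 CPM (log2 fold change -5.77 ± 0.16, adjusted p = 1.03e-05), while Snai2 (51.3 and 29.4 against 35.1 and 32.6 CPM) and Prrx1 (616 and 413 against 491 and 406 CPM) overlapped between groups.

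Extracellular matrix genes separated into basement membrane genes, which rose, and several interstitial matrix genes, which fell. Basement membranes are sheets of collagen IV, laminin, nidogen and perlecan beneath epithelia. Of 23 tested basement membrane genes, 21 rose, Smoc2 fell and Agrn did not pass (median log2 fold change 1.70). Summed, they stood at 6443 and 4931 CPM in MEFs and 18691 and 19242 CPM in MSCs. Collagen IV chains come in gene pairs, and all 6 chains rose. Col4a1 rose from 1433 and 1058 CPM to 6077 and 6454 CPM (log2 fold change 2.33 ± 0.19, adjusted p = 2.07e-04). Col4a3, whose chain is found in mature and specialised membranes such as those of kidney and testis, stood at 0.152 and 0.208 CPM in MEFs and 179.8 and 169 CPM in MSCs (log2 fold change 9.87 ± 0.27, adjusted p = 1.03e-05). Its neighbour Col4a4 stood at 0.202 and 0.312 CPM in MEFs and 416 and 399.8 CPM in MSCs (log2 fold change 10.60 ± 0.22, adjusted p = 8.56e-06). The 2 MEFs libraries were below 1 CPM for both of these chains and high for Col4a1. Col4a5 was at 278 and 165 against 629.6 and 600.2 CPM (log2 fold change 1.47 ± 0.25, adjusted p = 0.00436). Col4a6, the chain paired with it, was at 6.12 and 0.208 against 45.6 and 55.8 CPM, and its MEFs libraries were far apart (log2 fold change 3.99 ± 0.96, adjusted p = 0.0166). Col4a1 and Col4a2 overlap at their starts in the annotation, so reads there cannot be assigned without strand.

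Laminins are built of alpha, beta and gamma chains, and their chains differed in size of change. Lama1, the alpha chain of embryonic and testicular membranes, stood at 0.708 and 0.364 CPM in MEFs and 281 and 265 CPM in MSCs (log2 fold change 8.97 ± 0.28, adjusted p = 1.07e-05). Lama5 was at 14.7 and 16.6 against 27.97 and 27.5 CPM (log2 fold change 0.83 ± 0.13, adjusted p = 0.0031). The perlecan gene Hspg2 rose from 1176 and 1034 CPM to 3022 and 2917 CPM (log2 fold change 1.43 ± 0.16, adjusted p = 6.92e-04). The exception, Smoc2, which encodes a calcium-binding matrix protein, fell from 97.1 and 75.8 CPM to 13.8 and 9.72 CPM (log2 fold change -2.88 ± 0.24, adjusted p = 2.01e-04).

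Of 34 tested collagen chain genes, 15 rose, 15 fell and 4 did not pass. Without the first or the second MSCs library, 9 rose and 9 fell in each case. The fibrillar collagen gene Col3a1 had the largest increase in CPM of any named gene, from 969.5 and 1049 CPM to 14091 and 14357 CPM (log2 fold change 3.82 ± 0.17, adjusted p = 2.29e-05). Col1a1, the main collagen of fibroblasts, was at 8429.96 and 10586 against 12914 and 14962 CPM and did not pass (log2 fold change 0.55 ± 0.19, adjusted p = 0.0531). Col11a1, which sets the width of fibrils, rose from 187 and 96.5 CPM to 573 and 504 CPM (log2 fold change 1.93 ± 0.31, adjusted p = 0.00329). Col7a1, the anchoring fibril collagen of skin, fell from 102 and 79.4 CPM to 4.15 and 3.15 CPM (log2 fold change -4.63 ± 0.22, adjusted p = 2.60e-05). Col12a1, at 7021 and 2649 against 1091 and 938 CPM, differed more than 2-fold between the MEFs libraries (log2 fold change -2.25 ± 0.46, adjusted p = 0.00852; 8.67e-08 to 0.0782 over the alternatives, past 0.05 without MSCs 1 or MSCs 2).

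Of 39 other matrix genes, 15 rose and 18 fell, or 11 fell without the first MSCs library. Postn, which encodes the fibroblast matrix protein periostin, fell from 4594 and 4919.9 CPM to 109.9 and 121 CPM (log2 fold change -5.36 ± 0.20, adjusted p = 1.45e-05). Tnc, tenascin C, fell from 7470.4 and 6058 CPM to 229 and 265 CPM (log2 fold change -4.77 ± 0.20, adjusted p = 1.87e-05). Sparc, an abundant collagen-binding glycoprotein of Sertoli cells and fibroblasts, rose from 2855 and 2284 CPM to 9297 and 9542 CPM (log2 fold change 1.87 ± 0.18, adjusted p = 3.48e-04). Acan, the large proteoglycan of cartilage, was at 0.354 and 0.208 against 216 and 251 CPM (log2 fold change 9.66 ± 0.27, adjusted p = 1.69e-05). In the scatter of matrix levels these genes lie far from the diagonal.

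**Figure D3:**
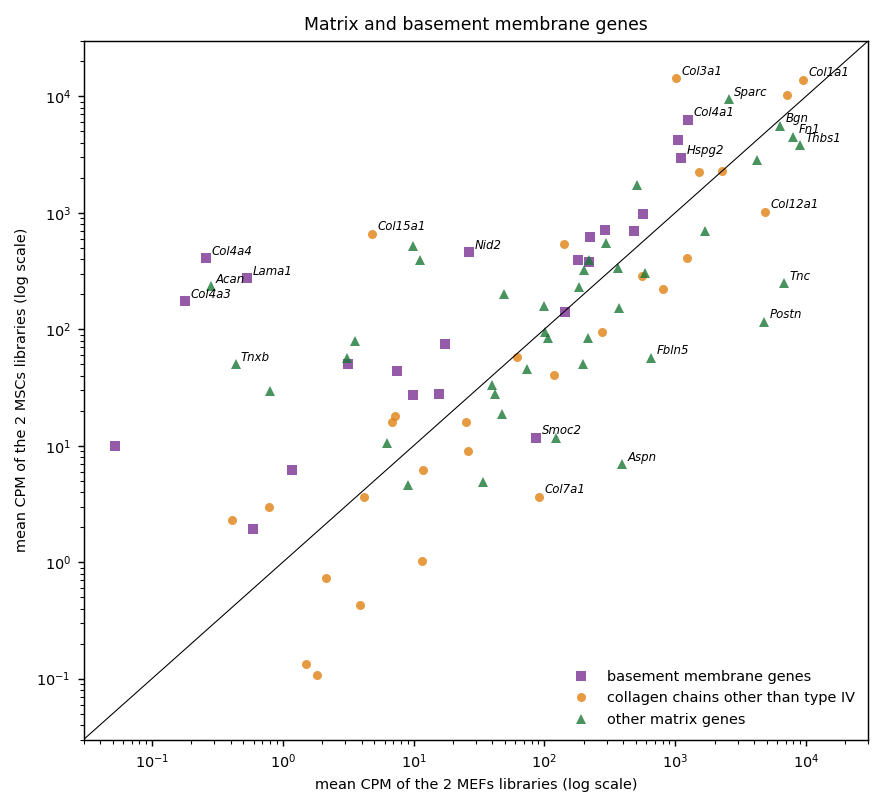
Mean CPM in MSCs against mean CPM in MEFs, both on log axes, for basement membrane genes, collagen chains other than type IV and other matrix genes (symbols by list), some of them named, with a diagonal of equal levels. Col4a3, Col4a4, Lama1 and Acan lie far above the diagonal, Postn and Tnc far below it, and Bgn, which did not pass, next to it.

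Enzymes that finish and cross-link collagen rose in 13 of 20 cases, with 1 lower and 6 not past the threshold (median log2 fold change 0.87). Lox, which cross-links collagen and elastin, rose from 1683 and 1173 CPM to 4412 and 3627 CPM (log2 fold change 1.49 ± 0.21, adjusted p = 0.00216). Its relative Loxl2 rose from 539 and 468 CPM to 1456 and 1574 CPM (log2 fold change 1.59 ± 0.15, adjusted p = 3.28e-04), while Loxl3 fell from 334 and 361 CPM to 113 and 131 CPM (log2 fold change -1.51 ± 0.14, adjusted p = 2.94e-04). Of 28 matrix proteases and inhibitors, 16 rose and 5 fell, or 10 and 3 without the first MSCs library. Timp1, a protease inhibitor secreted by Sertoli cells, was at 149 and 164 against 622 and 706 CPM (log2 fold change 2.08 ± 0.16, adjusted p = 1.74e-04). Mmp14, a membrane-bound collagenase, fell from 885 and 1123 CPM to 481 and 483 CPM (log2 fold change -1.06 ± 0.16, adjusted p = 0.00268). Mmp9, a gelatinase of macrophages and other cells, fell from 42.4 and 48.03 CPM to 0.425 and 0.3803 CPM (log2 fold change -6.79 ± 0.32, adjusted p = 2.67e-05).

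Fibroblast identity genes did not fall as a block. Of 28 tested, 9 rose, 12 fell and 7 did not pass (median log2 fold change -0.05). Thy1, a surface marker of fibroblasts, fell from 867 and 687 CPM to 4.15 and 4.29 CPM (log2 fold change -7.52 ± 0.21, adjusted p = 1.03e-05). Pdgfra, the mesenchymal receptor, was at 632 and 425 against 580.3 and 513 CPM, with overlapping groups (log2 fold change 0.05 ± 0.21, adjusted p = 0.87). Pdgfrb fell from 422 and 325 CPM to 159 and 152 CPM (log2 fold change -1.27 ± 0.16, adjusted p = 0.00126). The MSCs libraries thus held high levels of some mesenchymal genes and low levels of others.

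Factors that pattern the limb and body wall fell more often than they rose. Of 35 tested, 5 rose, 16 fell and 14 did not pass (median log2 fold change -1.45), and without the second MSCs library 3 rose. Tbx15, a factor of limb and dermal mesenchyme, fell from 112 and 92.4 CPM to 0.266 and 0.217 CPM (log2 fold change -8.69 ± 0.24, adjusted p = 1.03e-05). Shox2, which shapes the proximal limb, fell from 34.2 and 37.3 CPM to 0.266 and 0.217 CPM (log2 fold change -7.17 ± 0.22, adjusted p = 1.03e-05). En1, a factor of ventral limb ectoderm and dermis, was at 35.96 and 49.2 against 7.12 and 7.28 CPM (log2 fold change -2.56 ± 0.23, adjusted p = 2.96e-04). Irx1, a homeobox gene named among the 16 largest decreases, fell from 72.03 and 84.7 CPM to 0.0532 and 0.163 CPM (log2 fold change -9.43 ± 0.30, adjusted p = 1.09e-05). In each of these both MEFs libraries were high. The 5 that rose were Msx1, Msx2, Tbx2, Scx and Foxf2, with Msx2 lost without the second MSCs library and Foxf2 without either. Of these, Tbx2 rose from 1.57 and 1.51 CPM to 27.9 and 27.8 CPM (log2 fold change 4.17 ± 0.16, adjusted p = 1.47e-05) and the tendon factor gene Scx from 0.9104 and 1.25 CPM to 6.54 and 6.46 CPM (log2 fold change 2.59 ± 0.33, adjusted p = 0.0012).

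HOX genes lie in 4 clusters and mark position along the body axis, with low numbers used towards the head and high numbers towards the tail. Of 32 tested, 7 rose, 21 fell and 4 did not pass (median log2 fold change -1.78). The clusters differed. All 6 that rose apart from Hoxc13 belonged to the D cluster: Hoxd3, Hoxd4, Hoxd8, Hoxd9, Hoxd10 and Hoxd11. The seventh tested gene of that cluster, Hoxd1, fell from 0.961 and 1.35 CPM to 0.106 and 0.0543 CPM, 3 reads in all, a ratio of 14-fold (95% interval 5 to 72) in favour of MEFs. Hoxd9 rose from 4.603 and 5.25 CPM to 53.6 and 52.97 CPM (log2 fold change 3.43 ± 0.15, adjusted p = 1.99e-05). Hoxd10 was at 0.253 and 0.312 against 34.1 and 31.2 CPM (log2 fold change 6.82 ± 0.24, adjusted p = 1.18e-05). Hoxd8 was at 31.9 and 30.6 against 66.3 and 59.3 CPM (log2 fold change 1.01 ± 0.13, adjusted p = 0.00135). In the B cluster all 8 tested genes fell, in the A cluster 8 of 10 and in the C cluster 4 of 7. Hoxb9 fell from 98.3 and 93.4 CPM to 10.95 and 12.8 CPM (log2 fold change -3.01 ± 0.15, adjusted p = 3.23e-05) and Hoxb8 from 33.3 and 26.5 CPM to 1.595 and 1.47 CPM (log2 fold change -4.28 ± 0.19, adjusted p = 2.23e-05). Of the A and C genes, Hoxa5 fell from 3.19 and 4.002 CPM to 0.957 and 0.489 CPM (log2 fold change -2.30 ± 0.30, adjusted p = 0.00139) and Hoxc8 from 65.8 and 75.6 CPM to 16.96 and 17.7 CPM (log2 fold change -2.03 ± 0.15, adjusted p = 1.17e-04). Hoxc6 was at 111 and 113 against 63.3 and 61.2 CPM (log2 fold change -0.85 ± 0.12, adjusted p = 0.00183). The exception outside the D cluster, Hoxc13, had 3 reads in MEFs and 1.91 and 1.47 CPM in MSCs, a ratio of 22-fold (95% interval 7 to 110). Hoxd10 and Hoxd11, and Hoxd3 and Hoxd4, overlap in the annotation, so their reads cannot be fully told apart.

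**Figure D4:**
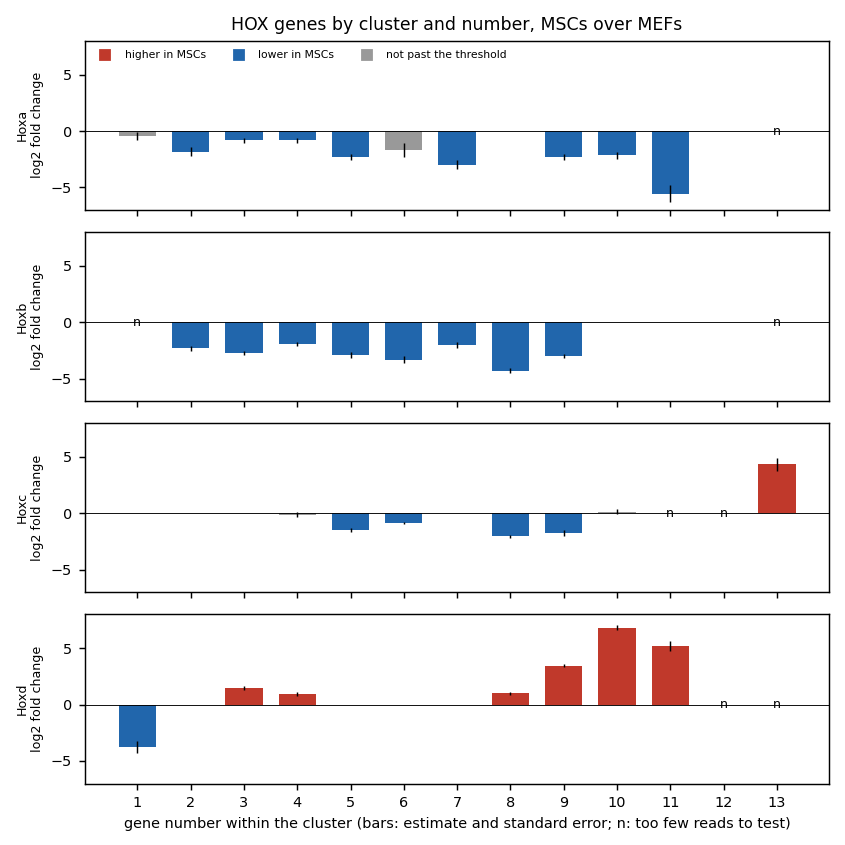
Log2 fold change of MSCs over MEFs for each HOX gene (bars, with the standard error as a line), by cluster (one panel each) and by number within the cluster, coloured by call, with n where a gene had too few reads to test. Bars point up for D cluster genes from Hoxd3 to Hoxd11 and down for Hoxd1 and for most of the A, B and C clusters, apart from Hoxc13.

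Genes of fetal growth were lower. Of 11 oncofetal growth genes, 8 fell, 1 rose (Bex1, a call lost without any 1 library other than the first of MEFs) and 2 did not pass (median log2 fold change -0.83), and 5 fell without either MSCs library. Hmga2, a chromatin protein gene of fetal mesenchyme, fell from 463 and 251 CPM to 15.3 and 15.2 CPM (log2 fold change -4.55 ± 0.32, adjusted p = 1.05e-04). Igf2bp1 and Igf2bp3 encode RNA-binding proteins of embryonic cells, and Igf2bp1 fell from 27.97 and 21.4 CPM to 1.91 and 1.58 CPM (log2 fold change -3.82 ± 0.21, adjusted p = 4.67e-05). Igf2bp3 was at 51.9 and 40.6 against 7.28 and 6.899 CPM (log2 fold change -2.71 ± 0.18, adjusted p = 8.51e-05). Imprinted genes, expressed from 1 parental copy, moved in both directions, with 4 higher, 9 lower and 11 not past the threshold of 24, and 5 lower without the first MSCs library. Dlk1, a Notch-related fetal gene, fell from 42.6 and 41.6 CPM to 1.12 and 0.706 CPM (log2 fold change -5.52 ± 0.22, adjusted p = 1.60e-05). The cell cycle inhibitor gene Cdkn1c fell from 19.2 and 35.3 CPM to 2.45 and 1.79 CPM (log2 fold change -3.68 ± 0.35, adjusted p = 3.75e-04). Peg10, derived from a retrotransposon, rose from 13.3 and 11.96 CPM to 252 and 296 CPM (log2 fold change 4.44 ± 0.16, adjusted p = 1.21e-05), and Dio3, which inactivates thyroid hormone, from 2.48 and 3.33 CPM to 43.7 and 51.1 CPM (log2 fold change 4.03 ± 0.21, adjusted p = 3.43e-05).

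The IGF system shifted in its binding proteins. Of 17 tested genes, 9 rose and 5 fell, or 5 and 3 without either MSCs library. Igfbp3 rose from 98.99 and 78.7 CPM to 1193 and 1076 CPM (log2 fold change 3.67 ± 0.19, adjusted p = 3.43e-05) and Igfbp4 from 174 and 287 CPM to 1699.7 and 1559 CPM (log2 fold change 2.82 ± 0.25, adjusted p = 2.86e-04), while Igfbp5 fell from 65.3 and 61.02 CPM to 16.5 and 16.7 CPM (log2 fold change -1.93 ± 0.16, adjusted p = 1.90e-04). The fetal ligand gene Igf2 fell from 33.4 and 35.9 CPM to 16.7 and 14.5 CPM (log2 fold change -1.15 ± 0.15, adjusted p = 0.00139).

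Signalling genes were described by pathway. In the TGF-beta and BMP family, 23 of 43 rose, 9 fell and 11 did not pass (median log2 fold change 0.76), with 5 lower without the first MSCs library. Among ligands, Bmp4 rose from 6.12 and 9.25 CPM to 64.01 and 56.3 CPM (log2 fold change 2.97 ± 0.22, adjusted p = 1.32e-04), Tgfb1 fell from 201 and 319 CPM to 74.1 and 93.5 CPM (log2 fold change -1.63 ± 0.25, adjusted p = 0.0027) and Gdf10 fell from 21.6 and 28.1 CPM to 0 and 0.109 CPM, 2 reads in all, a ratio of 461-fold (95% interval 127 to 3814) in favour of MEFs. Of the receptors, the co-receptor gene Tgfbr3, which lets inhibin bind, rose from 91.95 and 51.2 CPM to 503 and 408 CPM (log2 fold change 2.67 ± 0.31, adjusted p = 8.76e-04).

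Of 38 WNT pathway genes, 21 rose, 8 fell and 9 did not pass (median log2 fold change 1.05), with 5 lower without the first MSCs library. The ligand gene Wnt4 rose from 5.46 and 8.78 CPM to 69.97 and 73.99 CPM (log2 fold change 3.34 ± 0.23, adjusted p = 1.09e-04). Sfrp2, a secreted WNT modulator, stood at 1.37 and 1.196 CPM in MEFs and 1045 and 1052 CPM in MSCs (log2 fold change 9.67 ± 0.19, adjusted p = 8.56e-06). Axin2, a target gene of the pathway, was at 0.556 and 1.04 against 29.8 and 32.9 CPM (log2 fold change 5.29 ± 0.30, adjusted p = 4.64e-05). Of the members that fell, the antagonist gene Dkk2 stood at 276 and 203 CPM in MEFs and had 1 read in MSCs, a ratio of 8920 (95% interval 1601 to 352377) in favour of MEFs. Lgr5, a receptor of WNT-amplifying R-spondins, fell from 209 and 145 CPM to 0.0532 and 0.272 CPM (log2 fold change -10.04 ± 0.44, adjusted p = 2.03e-05). It overlaps A930009A15Rik in the annotation.

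Hedgehog signalling runs in the testis from Sertoli cells to Leydig and myoid cells, and the list was split here. Of 13 tested genes, 8 rose, 2 fell and 3 did not pass. Besides Dhh, Gli1, a target gene of the pathway, was at 0.152 and 0.208 against 3.08 and 3.69 CPM (log2 fold change 4.19 ± 0.40, adjusted p = 3.61e-04), and the receptor and target gene Ptch1 at 7.69 and 4.05 against 47.7 and 34.4 CPM (log2 fold change 2.80 ± 0.34, adjusted p = 9.80e-04). Both were higher in each MSCs library. Hhip, a target gene that binds and restrains the ligands, fell from 2.17 and 0.832 CPM to 0.213 and 0.326 CPM (log2 fold change -2.46 ± 0.61, adjusted p = 0.0191; 0.0021 to 0.133 over the alternatives, past 0.05 without MSCs 1 or MSCs 2). Gli3, mainly a repressor that patterns the limb, fell from 74.5 and 42.9 CPM to 15.5 and 12.7 CPM (log2 fold change -2.06 ± 0.29, adjusted p = 0.00187). The transducer gene Smo was at 88.9 and 75.01 against 102 and 98.2 CPM and did not pass.

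In the Notch pathway 5 of 12 tested genes rose and 4 fell. The ligand gene Jag1 fell from 92.4 and 71.3 CPM to 32.3 and 31.5 CPM (log2 fold change -1.36 ± 0.17, adjusted p = 0.00103) and the receptor gene Notch3 rose from 15.2 and 10.2 CPM to 48.97 and 48.3 CPM (log2 fold change 1.93 ± 0.21, adjusted p = 5.98e-04). Of 36 growth factor and receptor genes, 16 rose, 9 fell and 11 did not pass. Egfr was at 102 and 62.7 against 441 and 426 CPM (log2 fold change 2.40 ± 0.24, adjusted p = 4.15e-04), and Erbb3, which binds neuregulin, at 0.405 and 0.2599 against 25.4 and 27.1 CPM (log2 fold change 6.27 ± 0.31, adjusted p = 3.02e-05). Of the vessel growth factor genes, Vegfa rose from 92.01 and 75.2 CPM to 346 and 384 CPM (log2 fold change 2.13 ± 0.15, adjusted p = 1.24e-04) and Vegfd from 68.9 and 65.3 CPM to 837 and 791 CPM (log2 fold change 3.60 ± 0.14, adjusted p = 1.45e-05), while Vegfc fell from 29.9 and 26.4 CPM to 8.83 and 8.69 CPM (log2 fold change -1.68 ± 0.15, adjusted p = 3.10e-04).

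Genes of the angiotensin system and other vasoactive peptides all differed. Of 11 tested, 9 rose and 2 fell, with a median log2 fold change of 4.27, or 4.15 with genes at 0 reads set to their bound. Agt, the precursor of angiotensin, rose from 0.759 and 0.936 CPM to 156 and 184 CPM (log2 fold change 7.64 ± 0.28, adjusted p = 1.39e-05). The receptors went opposite ways. Agtr1a rose from 0.9104 and 0.832 CPM to 17.9 and 15.9 CPM (log2 fold change 4.27 ± 0.24, adjusted p = 4.42e-05), and Agtr2, a receptor of fetal mesenchyme, stood at 75.5 and 40.6 CPM in MEFs and 0 reads in MSCs (at least 721-fold lower). Adm, the vasodilator adrenomedullin, rose from 46.6 and 44.3 CPM to 433 and 425 CPM (log2 fold change 3.24 ± 0.14, adjusted p = 1.87e-05), and the endothelin gene Edn1 from 9.81 and 3.48 CPM to 106 and 130.1 CPM (log2 fold change 4.15 ± 0.45, adjusted p = 6.23e-04). Of the endothelin receptors, Ednra rose from 15.9 and 7.59 CPM to 56.7 and 50.8 CPM (log2 fold change 2.19 ± 0.32, adjusted p = 0.00243) and Ednrb fell from 11.6 and 9.98 CPM to 1.65 and 2.55 CPM (log2 fold change -2.36 ± 0.32, adjusted p = 0.00173).

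Macrophage genes were abundant in MEFs and lower in MSCs. Of 27 tested identity genes, 24 fell, 1 rose and 2 did not pass (median log2 fold change -3.15). Their summed level was 15136 and 24959.97 CPM in MEFs and 2215 and 2100.1 CPM in MSCs, so both groups held these transcripts and the second MEFs library held most. The lysozyme gene Lyz2 fell from 7161 and 12498 CPM to 782 and 718 CPM (log2 fold change -3.71 ± 0.34, adjusted p = 3.08e-04). Csf1r, the receptor that macrophages need to survive, fell from 1160.4 and 1744 CPM to 113 and 102 CPM (log2 fold change -3.76 ± 0.32, adjusted p = 2.25e-04). The surface marker gene Adgre1 fell from 329 and 291 CPM to 31.8 and 31.2 CPM (log2 fold change -3.30 ± 0.37, adjusted p = 7.47e-04). In each of these the groups were apart. Vsig4, a complement receptor of resident macrophages and the exception, had 0 reads in MEFs and 2.55 and 3.75 CPM in MSCs (at least 41-fold higher). Most inflammatory and chemokine genes, most of the lysosomal genes that changed and the complement genes of the C1q subunit fell in the same libraries, as given below. The part of macrophages in those results was not tested.

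Of 22 inflammatory genes, 13 fell, 3 rose and 6 did not pass (median log2 fold change -1.55), and 8 fell without either MSCs library, with 1 higher without the second. Tnf, the tumour necrosis factor gene, fell from 95.5 and 82.3 CPM to 2.02 and 1.63 CPM (log2 fold change -5.60 ± 0.20, adjusted p = 3.14e-05). Lif, a cytokine of stem cell niches, rose from 14.7 and 8.37 CPM to 33.8 and 40.5 CPM (log2 fold change 1.69 ± 0.27, adjusted p = 0.00337). Among 22 chemokine ligand genes, 14 fell and 5 rose (median log2 fold change -2.36). Ccl2, which attracts monocytes, fell from 519.8 and 495 CPM to 30.4 and 33.1 CPM (log2 fold change -3.997 ± 0.18, adjusted p = 2.23e-05), and Cxcl1, which attracts neutrophils, from 24.7 and 25.8 CPM to 2.87 and 2.23 CPM (log2 fold change -3.30 ± 0.23, adjusted p = 1.01e-04). Against these, Cxcl14 rose from 63.7 and 118 CPM to 1767 and 1909 CPM (log2 fold change 4.34 ± 0.31, adjusted p = 1.25e-04) and Cxcl12, which guides stem and germ cells, from 113 and 61.8 CPM to 333 and 290.1 CPM (log2 fold change 1.83 ± 0.28, adjusted p = 0.00283). With Cxcl14 included, the summed level of the chemokine list was not lower in MSCs, at 1695 and 1671 CPM in MEFs and 2391 and 2503 CPM in MSCs.

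Interferon-stimulated genes went the other way from the inflammatory ones. Of 32 tested, 21 rose, 1 fell and 10 did not pass (median log2 fold change 1.20). Oasl2, an antiviral gene, stood at 25.2 and 43.7 CPM in MEFs and 2032 and 1504 CPM in MSCs (log2 fold change 5.68 ± 0.35, adjusted p = 6.65e-05). Irf1, the only member that fell, was at 47.1 and 69.1 against 22.6 and 22.7 CPM (log2 fold change -1.36 ± 0.20, adjusted p = 0.00227). Isg15 (21.2 and 52.7 against 59.3 and 65.9 CPM), Bst2 (116 and 251 against 160.5 and 180.2 CPM) and Ifitm3 (481 and 879 against 435 and 478 CPM) did not pass, and their MEFs libraries differed by more than the groups. Of 13 tested class I presentation genes, 3 were higher, 2 lower and 8 not past the threshold, beside 22.5% higher and 20.0% lower over all tested genes. The light chain gene B2m was at 972 and 1717 against 768 and 992 CPM.

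Complement genes split by subunit. Of 21 tested, 11 rose and 8 fell. C4b had the largest lower bound of any named gene, with 0 reads in MEFs and 382 and 412 CPM in MSCs (at least 5164-fold higher). It has a near-identical copy, C4a, at 2.12 and 2.44 CPM in MEFs and 4.84 and 5.00 CPM in MSCs, so reads may be split between them. C3, the central component, rose from 206 and 353 CPM to 1973 and 1904 CPM (log2 fold change 2.79 ± 0.29, adjusted p = 5.29e-04) and the protease gene C1s1 from 57.4 and 46.4 CPM to 596 and 704 CPM (log2 fold change 3.65 ± 0.18, adjusted p = 2.86e-05). The recognition subunit genes C1qa, C1qb and C1qc, which macrophages make, fell together, C1qa from 783 and 1361 CPM to 103 and 107 CPM (log2 fold change -3.35 ± 0.32, adjusted p = 3.84e-04).

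Sertoli cells clear dying germ cells through receptors that bind phosphatidylserine. Of 20 tested clearance genes, 8 rose and 8 fell, and 5 fell without either MSCs library. The bridge gene Gas6 rose from 491 and 467 CPM to 1428 and 1210.1 CPM (log2 fold change 1.46 ± 0.14, adjusted p = 4.11e-04), and its receptor gene Axl was at 793 and 463 against 1655 and 1689 CPM (log2 fold change 1.41 ± 0.25, adjusted p = 0.00531). The integrin subunit gene Itgb5 fell from 487 and 501 CPM to 188 and 203 CPM (log2 fold change -1.34 ± 0.12, adjusted p = 3.31e-04).

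Markers of further cell types were counted in the same way. Of 20 endothelial genes, 13 rose and 4 fell (median log2 fold change 2.43), although 6 rose among genes with at least 5 CPM in 2 libraries. Their summed level was 281 and 214 CPM in MEFs and 367 and 382 CPM in MSCs. Eng, a TGF-beta co-receptor of vessels and also of stromal cells, rose from 23.2 and 23.5 CPM to 198 and 202 CPM (log2 fold change 3.10 ± 0.13, adjusted p = 1.88e-05), and the platelet-endothelial adhesion gene Pecam1 from 0.303 and 0.676 CPM to 8.400 and 8.64 CPM (log2 fold change 4.11 ± 0.42, adjusted p = 4.71e-04). Flt1, a receptor of vessel growth factors, fell from 169 and 84.2 CPM to 2.45 and 2.61 CPM (log2 fold change -5.65 ± 0.40, adjusted p = 1.09e-04). Among 17 contractile genes of smooth muscle and peritubular myoid cells, edgeR called 8 higher and 0 lower (0 also by DESeq2 and at an unadjusted p under 0.05). Without the first MSCs library 4 rose, and without the second MEFs library 3 fell. Myh11, the smooth muscle myosin gene, rose from 16.3 and 10.4 CPM to 91.02 and 92.9 CPM (log2 fold change 2.78 ± 0.22, adjusted p = 1.88e-04). Larger increases were seen for Mylk, from 28.1 and 27.0 CPM to 907 and 824 CPM (log2 fold change 4.97 ± 0.15, adjusted p = 1.03e-05). Des rose from 0.455 and 0.780 CPM to 39.6 and 47.3 CPM (log2 fold change 6.13 ± 0.35, adjusted p = 4.93e-05). Acta2 (2448 and 2066 against 2394 and 2242 CPM) and Tagln (988 and 1036 against 1258 and 1219 CPM) did not pass.

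Germ cell transcripts were scarce. Of 33 measured germ cell genes, 15 could be tested, with 8 higher and 2 lower, and 5 higher and 1 lower without either MSCs library. The RNA helicase gene Ddx4 stood at 0.354 and 0.312 CPM in MEFs and 5.64 and 3.91 CPM in MSCs (log2 fold change 3.82 ± 0.38, adjusted p = 4.38e-04), and Dazl had 2 reads in MEFs and 1.49 and 1.901 CPM in MSCs, a ratio of 33-fold (95% interval 9 to 279). Zbtb16, a factor of spermatogonial stem cells that other cells also use, rose from 3.34 and 3.53 CPM to 25.1 and 19.2 CPM (log2 fold change 2.69 ± 0.22, adjusted p = 2.00e-04). Gfra1, the GDNF receptor gene, went the other way, from 127 and 115 CPM to 0.425 and 0.217 CPM (log2 fold change -8.53 ± 0.28, adjusted p = 1.10e-05). Prm1 and Sycp3, defining genes of spermatids and spermatocytes, were near 0 in all 4 libraries. Of 10 measured T and B lymphocyte genes 4 could be tested, and Cd3e, Cd3d, Cd79a and Cd79b, which are among the defining genes of these cells, had at most 3 reads in either group. Cd4 and Cd8a rose and stayed below 2 CPM in every library, with Cd4 lost without the first MSCs library and Cd8a lost without any 1 library. Lck did not pass, and the cytokine receptor gene Il7r fell from 15.8 and 19.1 CPM to 5.95 and 5.22 CPM (log2 fold change -1.64 ± 0.20, adjusted p = 9.51e-04).

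**Figure D5:**
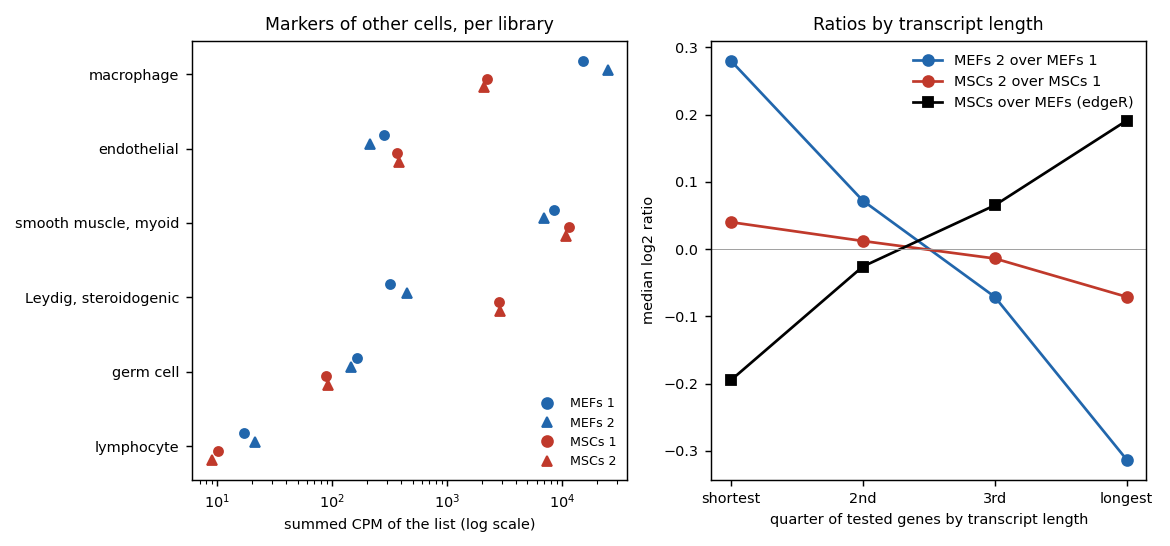
Left, summed CPM of marker lists of other cell types in each of the 4 libraries (log axis), with MEFs in blue and MSCs in red. Right, median log2 ratio of the second over the first library of each group, and of MSCs over MEFs, by class of transcript length (4 classes of equal size). Macrophage sums are higher in both MEFs libraries, Leydig and steroidogenic sums are higher in both MSCs libraries, and the ratio of the MEFs libraries falls from 0.28 to -0.31 with length.

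Genes of glycolysis, the route by which Sertoli cells make lactate for germ cells, and genes listed with them were mostly higher. The list also held the kinase genes Pdk1 and Pdk4, and Egln3, Bnip3, Car9 and Vegfa, which respond to low oxygen. The counts include all of these, each with both MSCs libraries above both MEFs libraries. Of 34 tested, 24 rose, 1 fell and 9 did not pass (median log2 fold change 0.99). Slc2a1, the glucose transporter gene, rose from 217 and 237 CPM to 379 and 415 CPM (log2 fold change 0.81 ± 0.13, adjusted p = 0.00338) and the glycolytic enzyme gene Eno1 from 929 and 983 CPM to 2232 and 2211 CPM (log2 fold change 1.22 ± 0.13, adjusted p = 5.77e-04). The lactate dehydrogenase genes Ldha (a call lost without either MSCs library) and Ldhb both rose, Ldhb from 29.1 and 30.8 CPM to 223 and 261 CPM (log2 fold change 3.02 ± 0.14, adjusted p = 2.72e-05). Slc16a3, which exports lactate, was at 143 and 171 against 378 and 432 CPM (log2 fold change 1.36 ± 0.15, adjusted p = 6.09e-04). Pkm, the last enzyme of the pathway, was at 2366 and 2046 against 2284 and 2235 CPM and did not pass (log2 fold change 0.03 ± 0.14, adjusted p = 0.862). The member that fell was Pfkfb4, at 15.98 and 18.2 against 8.35 and 9.45 CPM (adjusted p = 0.00594, 5.46e-04 to 0.0643 over the alternatives, past 0.05 without MSCs 1).

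Respiratory chain subunit genes were mostly not past the threshold: of 77 tested, 1 rose, 13 fell and 63 did not pass (median log2 fold change -0.37). The lower count rested on single libraries, with 66 without the first MEFs library, 0 and 1 without the first and the second MSCs library and 4 without either CiSCs library. Cox4i2, the oxygen-responsive form of a cytochrome oxidase subunit, was the member that rose, from 0.607 and 0.5198 CPM to 7.55 and 8.47 CPM (log2 fold change 3.81 ± 0.29, adjusted p = 1.50e-04). Ribosomal protein genes behaved alike, with 1 higher, 17 lower and 59 not past the threshold of 77 (median log2 fold change -0.58). Here 71 fell without the first MEFs library, 2 without either MSCs library and 8 without either CiSCs library. Their summed level was 26821 and 39097 CPM in MEFs and 22914 and 22989 CPM in MSCs, so the second MEFs library stood apart from the other 3. Many have processed pseudogenes that can share reads.

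Both lists consist of short transcripts, and the MEFs libraries differed from each other by transcript length. Of the tested genes, 14220 (93.1%) had a length. In the shortest of 4 equal classes, 348 to 2234 bases, the median log2 difference of the second over the first MEFs library was 0.28, and in the longest, 4833 to 123179 bases, it was -0.31. Between the MSCs libraries the same medians were 0.04 and -0.07. The median log2 fold change of MSCs over MEFs was -0.20 in the shortest class and 0.19 in the longest. The part of transcript length in the respiratory and ribosomal counts was not tested.

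Lipid, detoxification and metal genes held some of the largest steps. Lpl, the lipase that frees fatty acids from lipoproteins, rose from 55.7 and 45.5 CPM to 506 and 599 CPM (log2 fold change 3.45 ± 0.17, adjusted p = 3.14e-05), and the desaturase gene Scd1 from 201 and 128 CPM to 829 and 825 CPM (log2 fold change 2.33 ± 0.23, adjusted p = 4.05e-04). Of 30 genes of lipid droplets and fatty acids, 13 rose and 5 fell. The higher count was 8 without the first MSCs library, and the lower one 9 without the first MEFs library and 3 without either MSCs library. Plin2, a coat protein of droplets, fell from 159.9 and 219 CPM to 79.5 and 83.3 CPM (log2 fold change -1.22 ± 0.17, adjusted p = 0.00206). Of 36 glutathione and xenobiotic enzyme genes, 15 rose, 6 fell and 15 did not pass. Gpx3, a secreted peroxidase, rose from 50.1 and 47.4 CPM to 1472 and 1756 CPM (log2 fold change 5.05 ± 0.21, adjusted p = 1.85e-05), and the transferase genes Gsta3 and Gsta4, enzymes of steroid-making tissue and of lipid peroxide removal, rose too, Gsta3 from 0.405 and 0.416 CPM to 45.6 and 47.5 CPM (log2 fold change 6.81 ± 0.21, adjusted p = 1.03e-05). Members of the transferase families are similar in sequence and may share reads. Slc30a2, a zinc exporter of vesicles, had 0 reads in MEFs and 50.1 and 70.9 CPM in MSCs (at least 787-fold higher). The metallothionein genes, which bind zinc, rose, Mt1 from 54.02 and 104 CPM to 438 and 471 CPM (log2 fold change 2.53 ± 0.34, adjusted p = 0.00153) and Mt2 from 21.5 and 43.7 CPM to 345 and 325 CPM (log2 fold change 3.36 ± 0.38, adjusted p = 7.11e-04). Slc39a4, a zinc importer, fell from 7.44 and 15.9 CPM to 0.213 and 0 CPM (log2 fold change -6.68 ± 0.78, adjusted p = 8.68e-04).

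Lysosomal genes fell in 21 of 47 cases and rose in 6, with 20 not past the threshold, and 8 fell without either MSCs library. Ctsl, a protease that Sertoli cells secrete, was the clearest exception, at 694 and 859 against 2077 and 2655 CPM (log2 fold change 1.61 ± 0.19, adjusted p = 9.87e-04). Psap (2065 and 2688 against 2243 and 2415 CPM) did not pass.

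Of 42 genes of DNA replication and mitosis, 28 fell (median log2 fold change -0.58) and 0 rose by edgeR, with 0 also by DESeq2 and at an unadjusted p under 0.05. The lower count was 11 without the first and 8 without the second MSCs library, 18 without either CiSCs library and 18 with only the MEFs and MSCs libraries in the fit. Ccnd1, the cyclin of entry into the cycle, fell from 560.3 and 372 CPM to 49.2 and 42.9 CPM (log2 fold change -3.34 ± 0.23, adjusted p = 1.03e-04). The proliferation marker gene Mki67 was at 198 and 269.6 against 120.4 and 109 CPM (log2 fold change -1.03 ± 0.20, adjusted p = 0.00767; 2.96e-05 to 0.0774 over the alternatives, past 0.05 without MSCs 1 or MSCs 2). It was well above the detection limit in all 4 libraries. Of 25 cell cycle inhibitor and p53 response genes, 14 fell, 2 rose and 9 did not pass. Cdkn2a, the locus of the inhibitors p16 and p19Arf, which rises in cultured fibroblasts, fell from 48.7 and 68.1 CPM to 1.97 and 3.31 CPM (log2 fold change -4.46 ± 0.30, adjusted p = 9.72e-05). Cdkn1b, the inhibitor p27 of resting Sertoli cells, rose from 46.7 and 40.4 CPM to 88.8 and 81.4 CPM (log2 fold change 0.97 ± 0.14, adjusted p = 0.002).

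Some of the largest single differences lay outside the lists. Map3k21 (40.2 and 52.4 CPM in MSCs), Smpx (25.4 and 35.6 CPM), Fmo1 (26.2 and 25.7 CPM), Scin (18.5 and 26.8 CPM) and Myo5b (20.2 and 23.5 CPM) each had 0 reads in MEFs. The bounds ran from at least 284-fold higher for Myo5b to at least 602-fold higher for Map3k21. By level, Tango6, a gene of protein transport, rose from 88.8 and 95.3 CPM to 7609 and 7543 CPM (log2 fold change 6.36 ± 0.19, adjusted p = 1.03e-05) and the olfactory receptor gene Olfr1033 from 42.1 and 35.97 CPM to 4884 and 4253 CPM (log2 fold change 6.87 ± 0.20, adjusted p = 1.03e-05). Among the decreases, Ptn, the growth factor pleiotrophin, fell from 555 and 529 CPM to 0.479 and 0.652 CPM (log2 fold change -9.89 ± 0.26, adjusted p = 1.03e-05) and Lrrc15, a surface protein of matrix-forming fibroblasts, from 453 and 361 CPM to 0.213 and 0.217 CPM (log2 fold change -10.85 ± 0.37, adjusted p = 1.17e-05). Chodl stood at 30.9 and 22.2 CPM in MEFs and 0 reads in MSCs (at least 329-fold lower), and Mab21l2, which lies inside Lrba, at 13.1 and 12.4 CPM and 0 reads (at least 158-fold lower). Slc5a7, the choline transporter of cholinergic neurons, was at 22.4 and 2.65 CPM in MEFs and 0 reads in MSCs, with MEFs libraries more than 2-fold apart and a call lost without either MSCs library (adjusted p = 0.0105; 8.49e-09 to 0.0538 over the alternatives, past 0.05 without MSCs 1 or MSCs 2).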

How the data were processed

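Total RNA of the 4 libraries compared, and of 2 CiSCs libraries, had been sequenced on the BGISEQ-500 platform. The authors deposited 1 table of expected counts (estimated reads per gene that need not be whole) per library, under Entrez Gene identifiers. HISAT and the mouse build mm9 are named in the submitters' processing notes. Versions, the counting program, annotation, strand and filters are not given in the sources used here. In each library 42.0% to 43.8% of the values were not whole, and normalised values cannot be told apart from expected counts by this check. Totals were 19809083 and 19301771 counts in MEFs, 20418587 and 19971199 in MSCs.

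After rounding to whole counts, edgeR 4.0.16 (under R 4.3.3) was run with its default filter on low counts and scaling by the trimmed mean of M values. Its quasi-likelihood model held 1 mean for each of the 3 cell groups over all 6 libraries (3 residual degrees of freedom), and MSCs were tested against MEFs two-sided. The standard error is the size of the log2 fold change divided by the root of F. A ratio with 1 to 3 reads in a group has an exact binomial 95% interval. Reads carry no molecular identifiers. The procedure was tested on simulated data.

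Symbols and overlapping genes came from RefSeq (GRCm38.p6), which matched 18891 of 20007 identifiers. The other 1116 were tested but not named. The gene lists and rules were chosen with earlier results of these data known. By rule, the text names the 16 largest fold changes and 10 largest CPM differences in each direction (mean of at least 10 CPM, groups apart), fixed members and up to 4 members with high levels of each list, and members against a list's direction. Some of these are not reported here. Chosen after their values were seen were Agt, Agtr1a, Axin2, Col4a4, Col4a5, Col4a6, Col7a1, Cyp11a1's second start, Des, Fdx1, Fdxr, Hoxb8, Hoxc13, Hoxd1, Hoxd10, Hsd11b1, Mylk, Prlr, Sfrp2, Shox2, Tbx15 and Vegfc. Alternatives were the omission of each library, the replicate number as a block, only MEFs and MSCs in the fit, 3 other filters, 2 other scalings, DESeq2 1.42.0, a threshold of 0.01 in place of 0.05, testing for changes beyond 1.5-fold and counts not rounded. A fit with only identifiers that have a symbol was added after the data had been seen.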

Additional observations from a re-analysis of the deposited data

How the results depend on the processing

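Of the 6497 genes that differed, 3436 were higher and 3061 lower in MSCs. When each library was left out in turn, the total ran from 3516 to 9745, the higher genes from 2094 to 4957 and the lower genes from 1422 to 4788. The lowest values came without an MSCs library and the highest without the first MEFs library. Where an arm was left with 1 library, it was assumed to vary like the others. An adjusted p under 0.01 gave 4009 genes (1712 lower), and a test against a fold of 1.5 gave 3979 (1627 lower). DESeq2 called 6591, of which 6140 were shared. With library totals the median of all genes moved to -0.10, and 44.4% of the calls were higher against 52.9%, so that lower genes (3833) outnumbered higher ones (3058). With the replicate number as a block, 5672 genes passed (3095 higher, 2577 lower). The labels do not say that equal numbers mark a shared source, and the correlation of deviations across genes between the first libraries was 0.20. The depth limits genes at a few reads, such as Fshr, Lhcgr and Cyp17a1.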

Other observations

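Genes of axon and vessel guidance, which also sort cells in embryonic tissue, were split. Of 45 tested, 17 rose, 15 fell and 13 did not pass. Ephb1, an ephrin receptor gene, had 0 reads in MEFs and 25.6 and 37.7 CPM in MSCs (at least 412-fold higher). The secreted repellent gene Sema3a fell from 73.3 and 40.8 CPM to 4.31 and 5.595 CPM (log2 fold change -3.52 ± 0.32, adjusted p = 3.02e-04). Slit3 was at 1143 and 554 against 921 and 799.7 CPM and did not pass, with MEFs libraries 2-fold apart. Of 24 immediate early genes, which answer growth factors and handling within minutes, 9 rose and 9 fell, with 4 and 3 lower without the first and the second MSCs library. Fos rose from 25.4 and 31.9 CPM to 203 and 147 CPM (log2 fold change 2.61 ± 0.21, adjusted p = 1.92e-04). Of 18 genes of DNA methylation and chromatin, 5 rose and 3 fell, and without the first MSCs library 3 rose. Dnmt3a, a methyltransferase gene, was at 43.4 and 36.3 against 78.9 and 73.01 CPM (log2 fold change 0.93 ± 0.16, adjusted p = 0.00463), and Uhrf1, which guides methylation to new DNA, fell from 59.7 and 63.8 CPM to 32.6 and 29.01 CPM (log2 fold change -1.003 ± 0.14, adjusted p = 0.00164).

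All 4 tested Y-linked genes rose, and the part of the sex of the animals in this was not tested. Their summed level was 45.8 and 39.97 CPM in MEFs and 189 and 170.3 CPM in MSCs. Ddx3y stood at 12.1 and 11.4 CPM in MEFs and 78.6 and 61.5 CPM in MSCs (log2 fold change 2.57 ± 0.19, adjusted p = 1.24e-04) and Eif2s3y at 17.6 and 15.9 CPM in MEFs and 44.3 and 45.6 CPM in MSCs (log2 fold change 1.43 ± 0.13, adjusted p = 2.78e-04). Alpl, alkaline phosphatase, a gene of bone and of several other tissues, had 2 reads in MEFs and 126 and 139 CPM in MSCs, a ratio of 2584-fold (95% interval 715 to 21340), while the osteoblast factor gene Runx2 was at 30.8 and 25.7 against 35.2 and 32.00 CPM and did not pass. Class II presentation genes were all below 10 CPM in each library, and of 6 tested 2 rose, 1 fell and 3 did not pass, with 1 and 0 without either MSCs library. H2-Ab1 rose, at 0.101 and 0.208 against 7.497 and 9.94 CPM (log2 fold change 5.77 ± 0.40, adjusted p = 1.08e-04), in libraries in which macrophage identity genes were lower. H2-Aa rose from 0.152 and 0.05198 CPM to 1.49 and 1.47 CPM and H2-Oa fell from 0.556 and 1.25 CPM to 0 reads (at least 11-fold lower), both lost without either MSCs library, while Cd74 was at 4.86 and 6.81 against 8.29 and 6.899 CPM.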
